A study of Mus musculus with 12 samples.

Results

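The genes described here encode the nuclear subunits of the mitochondrial respiratory chain and of ATP synthase, in macrophages of mice that differed in genotype and diet. They were chosen by symbol: every listed gene whose name begins with Nduf followed by a, b, c, s or v, with Uqcr, with Cox 4 to 8 followed by a, b or c, or with Atp5, together with Sdha, Sdhb, Sdhc and Sdhd. This rule gave 92 of the 12339 listed genes. Of these, 40 belong to complex I, 4 to complex II, 7 to complex III, 15 to complex IV and 18 to ATP synthase (complex V), and the other 8 are the complex I assembly factors Ndufaf1 to Ndufaf8. A stricter reading leaves 78 subunits and 14 others, the others being the 8 assembly factors, 4 gene copies (Ndufb4b, Ndufb4c, Ndufs5-ps and Ndufs6b), the ATP synthase inhibitor Atp5if1 and the supercomplex factor Cox7a2l. The rule misses the complex IV subunit Cox4i1, the complex III subunit Cyc1 and the electron carrier Cycs, and these were followed beside the members.

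The respiratory chain passes electrons from NADH and succinate through complexes I to IV to oxygen and pumps protons across the inner mitochondrial membrane. ATP synthase lets the protons flow back and makes ATP. Most subunits are encoded in the nucleus and imported, while the mitochondrial genome encodes a few central ones, so that the complexes join products of both genomes. In macrophages the balance between this pathway and glycolysis is known to shift with activation state and lipid load.

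Libraries were made from macrophages recruited to the peritoneum with thioglycolate and washed out by lavage. The mice were wild type (WT) or meKO, read from the series title as a myeloid knockout of Prkce, which encodes protein kinase C epsilon; the recombinase line is not named. All mice, chow groups included, were 8 weeks old when given the AAV8PCSK9 vector, which per the labels serves to remove the LDL receptor from hepatocytes, and the cells were collected 4 weeks later, after chow or a high-fat "Western" diet (HFD). Each genotype on each diet makes a group of 3 libraries (4 groups, 12 libraries), whereas the labels describe 8 mice per genotype and 4 per genotype on HFD. Pooling of animals is not stated, and p-values measure the spread between these libraries.

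Total counts ran from 25844958 to 37282772 per library, and 91 of the 92 members had at least 10 counts in every library. Prkce stood between 2.01 and 4.44 CPM (counts scaled to library size with TMM factors) in the 6 WT libraries and between 0.950 and 1.78 CPM in the 6 meKO libraries. The listed macrophage markers summed to at least 5691 CPM per library, and B cell, T and NK, neutrophil and eosinophil markers each to at most 59.4 CPM; mast cell markers summed to 54.3 to 340 CPM, mesothelial and fibroblast markers to 37.2 to 99.5 CPM, and red blood cell markers to 1.15 to 42.6 CPM. The B cell markers moved with the diet: all 4 listed were called lower on HFD, and their summed level was 47.4 ± 11.3 CPM in WT chow and 25.0 ± 8.63 CPM in WT HFD (SD, n = 3), with 26.2 to 56.2 CPM in meKO chow and 16.7 to 34.9 CPM in meKO HFD. The 5 mesothelial and fibroblast markers moved as the members did: all 5 estimates were higher on HFD with a median of 0.55, Dcn was called (0.79 ± 0.14), and their sum went from 49.3 ± 10.8 to 72.3 ± 12.6 CPM in WT and from 53.2 ± 12.3 to 90.3 ± 15.1 CPM in meKO (SD, n = 3), without overlap in either genotype. Of 4 neutrophil markers, S100a8 and S100a9 were called higher on HFD and Retnlg lower. Of the 8 macrophage markers, 2 were called higher on HFD averaged over genotypes and 4 lower, with estimates from -0.52 to 0.49. These calls are as counted. After the length and GC correction described below, 3 B cell markers were called lower and 2 mesothelial and fibroblast markers higher. Of the neutrophil markers 0 were then called higher and 1 lower, and of the macrophage markers 1 higher and 1 lower. Lyz2, the macrophage lysozyme, was at 30482 to 53835 CPM in the 6 WT libraries and at 69.3 CPM in meKO chow replicate 2. The other meKO libraries held 16293 to 21309 CPM, all below the WT libraries. The part of these markers and of Lyz2 in the results was not tested. In whole-population RNA, fewer cells of a type and less RNA per cell cannot be told apart.

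Levels varied with transcript length, most strongly in 2 WT chow libraries. For each library, the deviation of every gene from its average log2 level was correlated with transcript length over 11532 genes. Spearman's rho came to 0.65, 0.68 and -0.04 in WT chow replicates 1 to 3, and to -0.13, -0.20 and 0.15 in meKO chow. Every HFD library had a negative rho, at -0.22, -0.11 and -0.46 in WT and at -0.13, -0.49 and -0.40 in meKO. The length dependence was thus not confined to WT chow replicates 1 and 2. Member transcripts are short: their median length was 746 bases against 2651 bases for all genes, and 85 of the 88 with a length were shorter than the median gene. The diet and genotype summaries are therefore given as counted and after a correction that removes, library by library, a smooth trend with transcript length and GC content. The correction is not neutral for these genes, since short transcripts that changed together would be part of the trend it removes. Whether the length dependence arose in the cells or in the libraries was not tested.

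Across the 12 libraries, the typical member was low in WT chow and high on HFD. The median member deviated from its own mean over all libraries by -0.56, -0.54 and -0.10 (log2) in WT chow replicates 1 to 3 and by 0.15, 0.13 and 0.34 in WT HFD, so the WT diet groups did not overlap. In meKO the medians were 0.02, 0.02 and -0.25 on chow and 0.01, 0.62 and 0.18 on HFD, so these groups overlapped, and meKO HFD replicate 2 stood far above its group. WT chow replicate 1 or 2 held the lowest of the 12 values for 87 of the 92 members, and meKO HFD replicate 2 held the highest for 84. After the correction the same medians were -0.17, -0.16 and -0.10 in WT chow, 0.09, 0.07 and 0.11 in WT HFD, 0.01, -0.00 and -0.10 in chow-fed meKO, and -0.01, 0.22 and 0.07 in HFD-fed meKO. The WT diet groups thus still did not overlap after the correction. The mean of these medians was -0.40 in WT chow against 0.21 in WT HFD as counted, and -0.15 against 0.09 after the correction. As a share of all counts, the members took 0.577% ± 0.0711 in WT chow and 0.752% ± 0.0368 in WT HFD (SD, n = 3). The meKO shares were 0.663% ± 0.0459 on chow and 0.791% ± 0.122 on HFD.

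**Figure D1:**
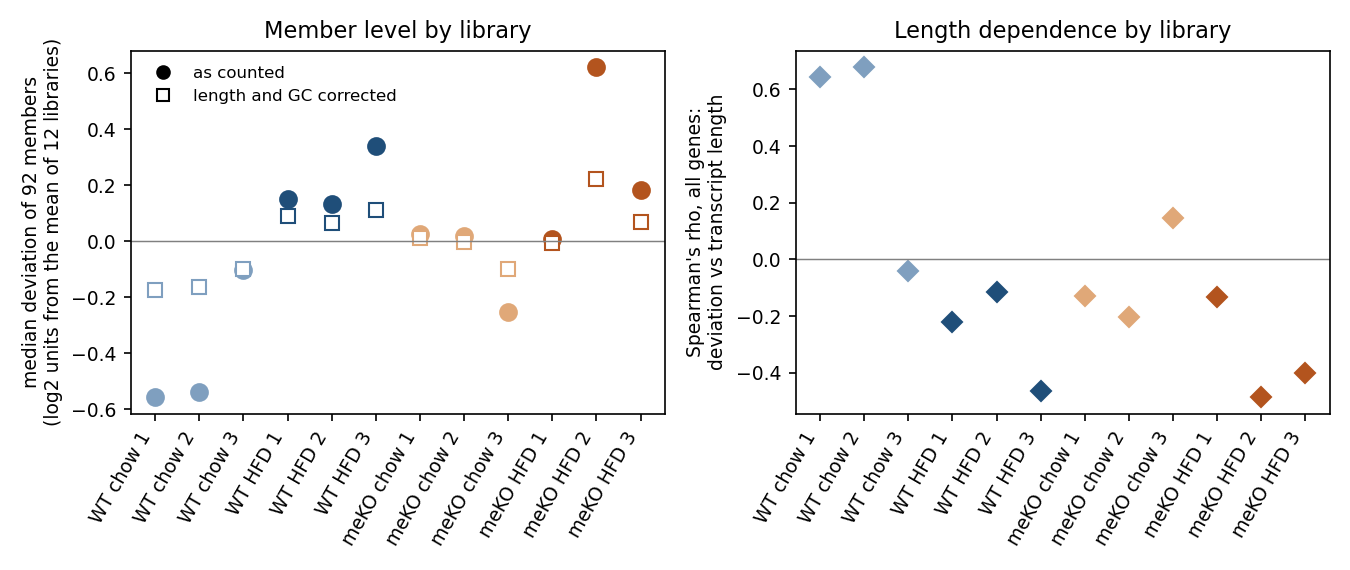
Left, median deviation of the 92 members in each library from their mean over 12 libraries, in log2 units, as counted (filled circles) and after the length and GC correction (open squares); right, Spearman's rho over all genes between a library's deviation and transcript length. WT chow replicates 1 and 2, the lowest at left as counted, are the highest at right, and meKO HFD replicate 2, the highest at left, is the lowest at right.

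The diet comparison averaged over both genotypes held the most calls. Of the 92 members, 72 rose on HFD and 0 fell (edgeR quasi-likelihood test, Benjamini-Hochberg adjusted p under 0.05 over all 12339 genes), where 14.9% of all genes were called higher. Dropping WT chow replicate 1 left 46 (8.02% of all genes), dropping meKO chow replicate 3 left 46 (7.96%) and dropping WT HFD replicate 3 left 47 (7.73%). The members' median log2 fold change was 0.48, beside -0.03 over all genes, and 91 of the 92 estimates were above 0. After the length and GC correction 39 members rose, where 12.8% of all genes were called higher, 1 fell, and the median was 0.20. Of the 72, 38 kept their call. Of these 38, 35 had a transcript length, and the others were gene copies without one, left uncorrected. Taking each gene's shortest transcript for the correction gave 53 rises, where 14.4% of all genes were called higher. Without WT chow replicates 1 and 2, a fit in which WT chow has 1 library whose spread is taken from the other groups, the median was 0.33 and 0 members passed, at 0.746% of all genes called higher. In that fit 46 members had an unadjusted p under 0.05, as did 23.2% of all genes. For 12 members all 6 HFD libraries lay above all 6 chow libraries, which 2.99% of all genes did: Atp5f1c, Atp5me, Atp5mj, Atp5mk, Atp5pb, Atp5pf, Cox7a1, Ndufa10, Ndufa12, Ndufaf4, Ndufb4c and Ndufv2, of which 6 are ATP synthase subunits. These 12, and the genes whose upstream sequences are printed, were picked after their values were seen.

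**Figure D2:**
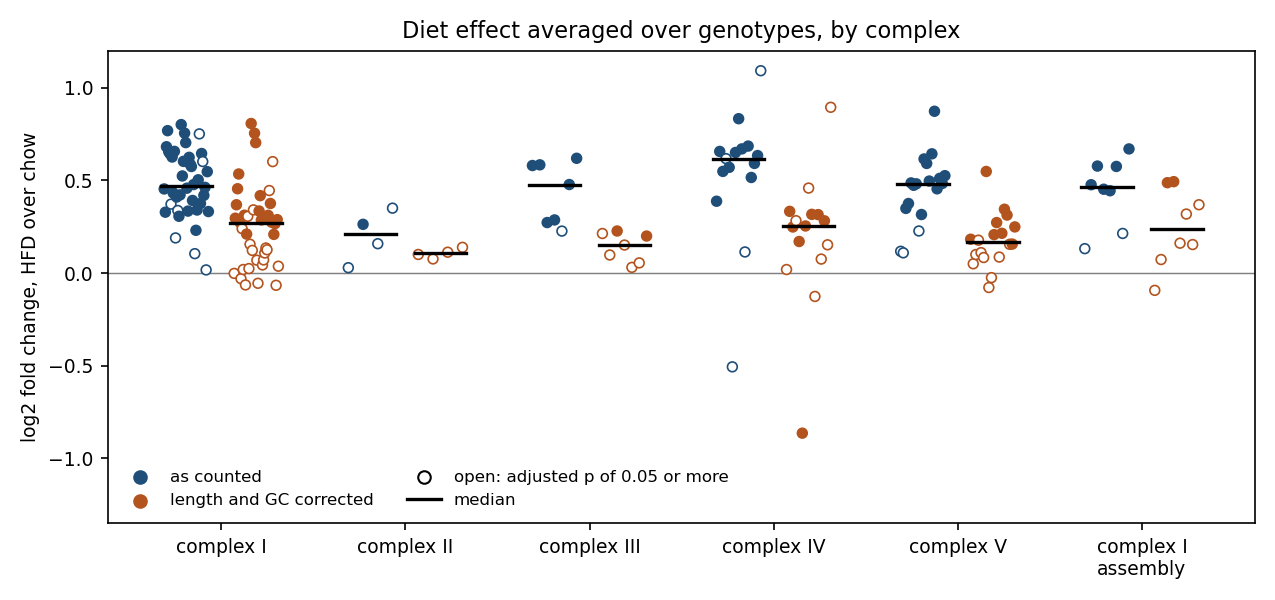
Log2 fold change of each member on HFD over chow, averaged over genotypes, by complex; blue as counted, orange after the length and GC correction, filled where the adjusted p is under 0.05, with the median as a black line. Of the 92 blue points 91 lie above 0, complex II has the lowest median as counted, and the orange medians are lower in each complex. The orange points of complex I include 4 gene copies without a transcript length, which were left uncorrected.

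In complex I, which takes electrons from NADH, 33 of 40 members rose on HFD over both genotypes, with a median log2 fold change of 0.47. After the correction 19 rose, 3 of them gene copies without a transcript length that were left uncorrected. The core subunits, which carry the flavin and the iron-sulfur clusters, rose in 5 of 7 cases with a median of 0.34. The accessory subunits, which surround them, rose in 25 of 29 cases with a median of 0.50. Median transcript length was 1312 bases for the core and 704 bases for the accessory subunits. After the correction 3 of 7 core and 13 of 29 accessory subunits rose, with medians of 0.14 and 0.27. Ndufv2, a core iron-sulfur subunit (chr17:66078795-66101559, GRCm38), stood at 60.3, 68.4 and 89.8 CPM in WT chow and at 110, 108 and 124 CPM in WT HFD. In meKO it reached 90.7, 89.9 and 77.2 CPM on chow and 96.8, 149 and 106 CPM on HFD. All 6 HFD libraries exceeded all 6 chow libraries, and the averaged log2 fold change was 0.55 ± 0.12 (SE, adjusted p = 0.00886, edgeR) as counted and 0.29 (adjusted p = 0.00953) after the correction.

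Other core subunits moved less. Ndufs1, the largest iron-sulfur subunit, stood at 77.9, 79.1 and 86.5 CPM in WT chow and at 89.3, 90.1 and 93.3 CPM in WT HFD. Libraries of meKO had 90.8, 92.6 and 85.1 CPM on chow and 81.9, 101 and 94.5 CPM on HFD. Its WT diet groups did not overlap, its meKO diet groups did, and its averaged log2 fold change of 0.10 ± 0.07 did not pass (adjusted p = 0.270, and 0.191 after the correction). Ndufv1, which binds NADH and the flavin, had the lowest averaged estimate of all members at 1 CPM or more on average, 0.02 ± 0.07 (adjusted p = 0.876). The core subunits Ndufs3, Ndufs7 and Ndufs8 rose by 0.34, 0.42 and 0.46 (log2). After the correction Ndufs7 and Ndufs8 still passed (0.21 and 0.27) and Ndufs3 did not (0.13, adjusted p = 0.172), and Ndufs3 lost its call in 14 of 22 alternatives. Among the accessory subunits, Ndufb8 rose by 0.59 ± 0.12 (adjusted p = 0.00809), Ndufs6 by 0.65 ± 0.14 and Ndufs4, a subunit mutated in inherited complex I deficiency, by 0.50 ± 0.11; each of these also passed after the correction. Ndufa1 rose by 0.45 as counted, and its estimate was -0.0018 after the correction.

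Some complex I values are uncertain because near-identical copies can share reads. Ndufb4 averaged 3.16 CPM, below its copies Ndufb4b at 25.8 CPM and Ndufb4c at 20.8 CPM. Ndufs5 was at 1.67, 1.21 and 14.4 CPM in WT chow and at 3.06, 22 and 15.3 CPM in meKO HFD, while its copy Ndufs5-ps stayed between 21.9 and 40.6 CPM in all libraries. These copies have no transcript length in the annotation and so were not corrected for it.

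Complex II oxidises succinate and belongs to the citric acid cycle as well as to the chain. It held the fewest calls: of its 4 subunits Sdhb alone rose, and the median was 0.21. Sdha, the flavin-binding subunit, stood at 231, 220 and 225 CPM in WT chow and at 210, 223 and 231 CPM in WT HFD. For meKO the values were 235, 232 and 241 CPM on chow and 246, 255 and 248 CPM on HFD. Its WT diet groups overlapped, its meKO HFD libraries all lay above its meKO chow libraries by a narrow margin, and its averaged log2 fold change was 0.03 ± 0.06 (adjusted p = 0.739). Sdhb, the iron-sulfur subunit, stood at 105, 114 and 118 CPM in WT chow and at 134, 137 and 148 CPM in WT HFD, and averaged over genotypes it rose by 0.26 ± 0.08 (adjusted p = 0.0215). After the correction none of the 4 passed, and the Sdhb estimate was 0.08 (adjusted p = 0.347). The Sdhc estimate was 0.16 ± 0.06 (adjusted p = 0.0636). Sdhd was counted at 0.910 CPM on average and is reported as uncertain.

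In complex III, which passes electrons on to cytochrome c, 6 of 7 members rose with a median of 0.48, and 2 after the correction. Uqcrq, a small accessory subunit, stood at 33.5, 32.6 and 40.6 CPM in WT chow and at 54.2, 57.3 and 69.7 CPM in WT HFD. Its meKO libraries held 53.0, 46.2 and 40.8 CPM on chow and 48.6, 85.2 and 61.0 CPM on HFD. The WT diet groups were well apart and the meKO groups overlapped; the averaged log2 fold change was 0.62 ± 0.13 (adjusted p = 0.00782), and 0.20 (adjusted p = 0.0497), just under the threshold, after the correction. The core proteins Uqcrc1 and Uqcrc2 rose by 0.27 ± 0.07 and 0.29 ± 0.10, and Uqcrc1 kept its call after the correction (0.23, adjusted p = 0.00697) while Uqcrc2 did not (0.15, adjusted p = 0.0881). Uqcrfs1, the Rieske iron-sulfur protein, did not pass (0.23 ± 0.09, adjusted p = 0.0670). Cyc1, the cytochrome subunit outside the rule, rose by 0.32 ± 0.08, and Cox4i1 of complex IV by 0.44 ± 0.12.

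In complex IV, which hands electrons to oxygen, all 10 ordinary nuclear subunits in the rule rose, 7 of them also after the correction. The median over all 15 members was 0.62, the highest of the 5 complexes as counted. After the correction it was 0.25, beside 0.27 in complex I, where 4 gene copies were left uncorrected. Cox6b1, the highest member per transcript length at 506 CPM per kilobase, stood at 149, 152 and 214 CPM in WT chow and at 281, 266 and 306 CPM in WT HFD. In meKO it reached 243, 240 and 196 CPM on chow and 243, 399 and 264 CPM on HFD. Its WT diet groups did not overlap and in meKO the lowest HFD library was level with the highest chow library; the averaged log2 fold change was 0.57 ± 0.13 (adjusted p = 0.00978), and 0.17 (adjusted p = 0.0315) after the correction. Cox6c and Cox7b rose by 0.65 ± 0.14 and 0.69 ± 0.15, also after the correction (0.25 and 0.32). Ndufa4, named for complex I but a subunit of complex IV, rose by 0.63 ± 0.15, and its corrected estimate was 0.15 (adjusted p = 0.0535).

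Alternative isoforms of complex IV were near the floor. Cox7a1, the heart and muscle isoform, stood at 1.56, 1.11 and 1.06 CPM in WT chow and at 2.78, 2.17 and 2.68 CPM in WT HFD. Libraries of meKO had 2.03, 1.93 and 1.24 CPM on chow and 2.40, 3.17 and 2.58 CPM on HFD. All 6 HFD libraries lay above all 6 chow libraries, and it rose by 0.83 ± 0.18 (adjusted p = 0.00815), with 0.46 (adjusted p = 0.0700) after the correction. Its common counterpart Cox7a2 rose by 0.67 ± 0.16. Cox6b2, the testis isoform, averaged 0.495 CPM and had the only averaged estimate below 0, -0.51 ± 0.23 (adjusted p = 0.111), which reached -0.86 (adjusted p = 0.0258) after the correction. Cox6a2 at 1.03 CPM and Ndufa4l2 at 0.592 CPM did not pass, and Ndufa4l2 had 1 count in WT chow replicate 3. Cox7a2l, which helps to join complexes III and IV into supercomplexes, did not pass (0.11 ± 0.12, adjusted p = 0.467).

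In ATP synthase 15 of 18 members rose with a median of 0.48, and 9 after the correction. By position in the enzyme, 5 of 5 small membrane subunits, 4 of 4 peripheral stalk subunits and 2 of 3 genes for the c ring rose. Of the catalytic head taken with its central stalk, 3 of 5 subunits rose. After the correction these counts were 4 of 5, 3 of 4, 1 of 3 and 1 of 5. Atp5mk, a small membrane subunit (chr19:47083471-47090647, GRCm38), stood at 9.65, 7.09 and 13.4 CPM in WT chow and at 17.6, 19.7 and 21.6 CPM in WT HFD. For meKO the values were 15.3, 15.0 and 12 CPM on chow and 17.3, 36.2 and 19.1 CPM on HFD. No HFD library was as low as any chow library, and it had the highest averaged rise among members at 1 CPM or more, 0.87 ± 0.19 (adjusted p = 0.00817), with 0.34 (adjusted p = 0.0210) after the correction. The subunits that form the catalytic sites did not pass as counted. Atp5f1b, which holds the catalytic sites, stood at 479, 467 and 549 CPM in WT chow and at 481, 507 and 586 CPM in WT HFD. Its meKO libraries held 565, 525 and 516 CPM on chow and 537, 613 and 625 CPM on HFD. Its diet groups overlapped in both genotypes and its log2 fold change was 0.11 ± 0.08 (adjusted p = 0.299). Atp5f1a did not pass as counted (0.12 ± 0.06, adjusted p = 0.155) but did after the correction (0.18, adjusted p = 0.0277). Atp5f1c, the rotating central stalk, rose by 0.35 ± 0.10, and Atp5if1, which blocks the enzyme when it runs backwards, by 0.47 ± 0.13; neither passed after the correction. Of the c ring genes, Atp5mc1 and Atp5mc3 rose by 0.48 and 0.32 and Atp5mc2 did not pass (0.23 ± 0.13); the Atp5mc3 estimate was -0.02 after the correction.

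**Figure D3:**
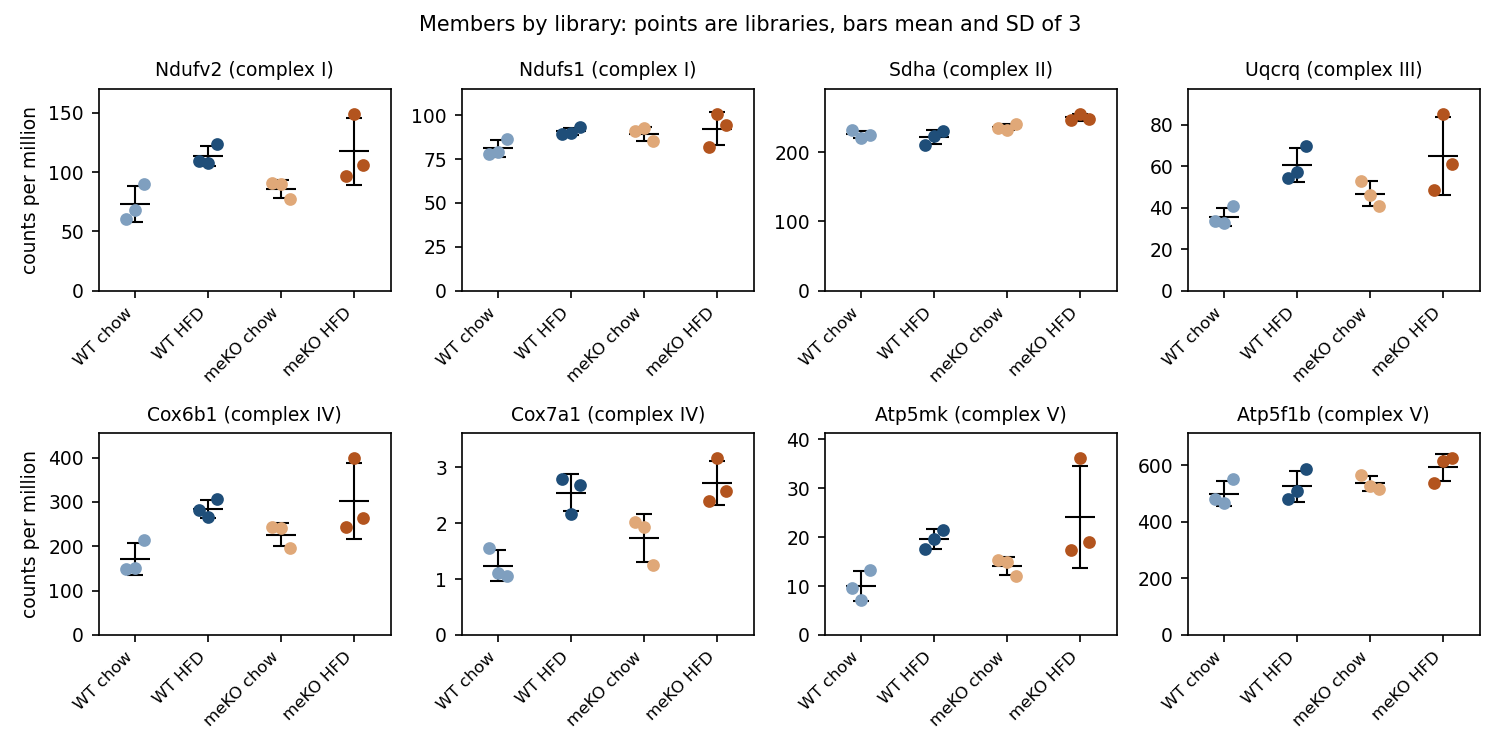
CPM of 8 members in each library (points) with the mean and SD of 3 libraries per group (bars); each panel has its own axis from 0. Ndufv2, Uqcrq, Cox6b1, Cox7a1 and Atp5mk are higher in WT HFD than in WT chow without overlap, while Sdha and Atp5f1b overlap between those groups.

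Of the complex I assembly factors, 6 of 8 rose and 2 after the correction. Ndufaf4 stood at 13.3, 13.4 and 15.4 CPM in WT chow and at 18.7, 18.6 and 22 CPM in WT HFD. In meKO it reached 16.3, 17.9 and 16.2 CPM on chow and 18.5, 26.2 and 22.4 CPM on HFD. Its median transcript length of 3632 bases was the greatest of the members, all its HFD libraries lay above all its chow libraries, and its log2 fold change was 0.45 ± 0.10 as counted (adjusted p = 0.00882) and 0.49 after the correction (adjusted p = 0.00346). Ndufaf3 also rose by both fits (0.58 ± 0.14 and 0.49), and Ndufaf1 and Ndufaf7 did not pass.

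Shorter members had the larger estimates. Over the 88 members with a length, Spearman's rho between length and log2 fold change was -0.44 for diet averaged over genotypes, against -0.51 over all 11532 genes with a length, and 0.17 after the correction. This is a relation across genes of the same 12 libraries, and genes are not independent replicates. Of the 56 members of up to 1000 bases, 49 rose with a median of 0.54, beside 435 of the 935 other genes of that length with a median of 0.35. Of the 32 longer members, 20 rose with a median of 0.34, beside 1169 of 10509 other genes with a median of -0.06. After the correction 22 of the short and 14 of the long members rose, against 147 and 1241 of the others.

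**Figure D4:**
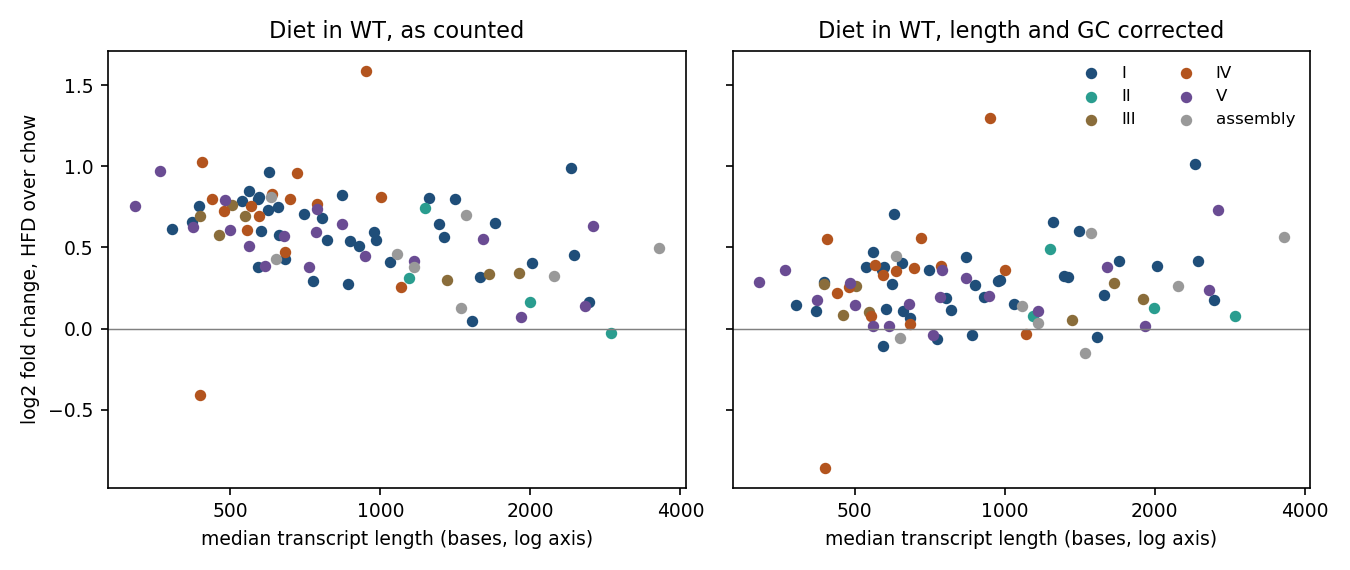
Log2 fold change on HFD over chow in WT against median transcript length (log axis) for the 88 members with a length, coloured by complex, as counted (left) and after the length and GC correction (right). Shorter members have the larger changes at left (Spearman's rho -0.46) and at right rho is 0.12.

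To show what lies upstream of genes that moved together, the 120 bases just before the start site are printed for 6 members, taken from RefSeq promoter windows (GRCm38.p6; 250 bases before to 50 after a start). Capitals mark exact letters of 4 motifs on either strand: GCATGCGC (bound by NRF1, an activator of respiratory genes), CCGGAAG (ETS factors such as GABP), AAGATGGC (YY1) and AAGGTCA (estrogen-related receptors). Atp5me and Ndufaf4 stand for members whose HFD libraries all exceeded the chow libraries, Sdhb is the complex II gene that rose, Cox6b1 the highest member per length, Atp5mc3 an example with the receptor motif, and Cox7a1 a member whose window held none of the 4.
Atp5me (chr5:108434400-108434519, minus strand): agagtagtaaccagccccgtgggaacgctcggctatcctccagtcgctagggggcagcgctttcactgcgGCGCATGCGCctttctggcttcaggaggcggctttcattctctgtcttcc
Ndufaf4 (chr4:24897963-24898082, plus strand): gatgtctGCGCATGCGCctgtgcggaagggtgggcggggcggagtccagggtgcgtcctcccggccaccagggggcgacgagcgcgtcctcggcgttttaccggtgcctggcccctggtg
Sdhb (chr4:140961151-140961270, plus strand): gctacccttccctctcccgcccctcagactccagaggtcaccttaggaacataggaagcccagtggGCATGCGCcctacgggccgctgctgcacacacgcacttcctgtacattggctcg
Cox6b1 (chr7:30626115-30626234, minus strand): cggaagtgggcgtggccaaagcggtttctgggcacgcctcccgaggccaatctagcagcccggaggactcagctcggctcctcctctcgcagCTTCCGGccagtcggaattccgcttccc
Atp5mc3 (chr2:73911327-73911446, minus strand): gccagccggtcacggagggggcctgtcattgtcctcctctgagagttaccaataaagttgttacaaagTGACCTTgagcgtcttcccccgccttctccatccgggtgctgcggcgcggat
Cox7a1 (chr7:30184051-30184170, plus strand): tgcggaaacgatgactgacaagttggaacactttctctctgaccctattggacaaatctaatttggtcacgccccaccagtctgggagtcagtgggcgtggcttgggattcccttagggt

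Whole windows were found for 75 of the 92 members, 80 windows in all. The NRF1 letters stood in 13.8% of these windows, in 5.21% of the 12157 windows of all listed genes and in 2.71% of all 32851 windows. The ETS letters stood in 22.5%, 17.9% and 8.86%, the YY1 letters in 13.8%, 4.58% and 2.75%, and the estrogen-related receptor letters in 11.3%, 3.12% and 4.72% of the same 3 sets. By gene, 36 of the 75 members held none of the motifs. Of the 61 members with a window that rose on HFD, 9 held the NRF1, 16 the ETS, 10 the YY1 and 7 the receptor letters, and of the other 14 members 2, 2, 1 and 2 did. A match describes letters only, and windows without one say nothing about the factor.

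The same averaged comparison was read in neighbouring gene groups. Of the 13 genes of the mitochondrial genome, which encode the remaining subunits of complexes I, III, IV and V, 12 rose with a median of 0.52, and 0 passed after the correction (10 of 13 estimates above 0). ND5 did not pass (0.26 ± 0.11, adjusted p = 0.0779), CYTB rose by 0.56 ± 0.12, and ATP8 with ATP6 and ND4L with ND4 overlap on the genome, so their counts are uncertain. The 77 mitochondrial ribosomal protein genes had 55 rises with a median of 0.40, and 41 after the correction. The 86 cytosolic ribosomal protein genes had 46 rises and 1 fall with a median of 0.42, and 12 rises and 4 falls after the correction. Cycs, the mobile electron carrier outside the rule, rose by 0.72 ± 0.13 (adjusted p = 0.00447), and by 0.73 after the correction.

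The citric acid cycle, which feeds the chain with NADH, moved in both directions: 4 of 17 genes rose (Mdh2, Suclg1, Sucla2 and Pdhb) and 2 fell (Ogdh fell by 0.60 and Dlat fell by 0.24 on the log2 scale). After the correction Mdh2, Suclg1, Sucla2 and Dld rose and Ogdh was still called lower, while Pdhb and Dlat did not pass. Of 37 assembly factors outside the rule, 11 rose and 1 fell with a median of 0.21, and after the correction 8 rose and 4 fell (Cox15, Cox20, Uqcc3 and Atpaf1) with a median of 0.06. Cox17, a copper chaperone of complex IV, rose by 0.71 ± 0.15, while Cox15, which makes heme for it, fell by 0.46. Among 7 carriers and channels, the ADP/ATP carrier Slc25a5 rose by 0.50 ± 0.10, Vdac2 and Vdac3 rose, and the others did not pass. After the correction Slc25a5 alone rose (0.28), Vdac2 and Vdac3 did not pass (0.10 and 0.15), and Vdac1 and Slc25a3 were called lower (-0.30 and -0.21). Of 12 regulators of mitochondrial gene expression none rose: Ppargc1b, a coactivator, fell by 0.65 ± 0.23 (adjusted p = 0.0455), Pprc1 fell by 0.36, and Nrf1, Tfam, Gabpa, Esrra and Ppargc1a did not pass, with estimates from -0.14 to -0.02. After the correction Ppargc1b and Pprc1 no longer passed, and Tfam was called lower (-0.37).

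**Figure D5:**
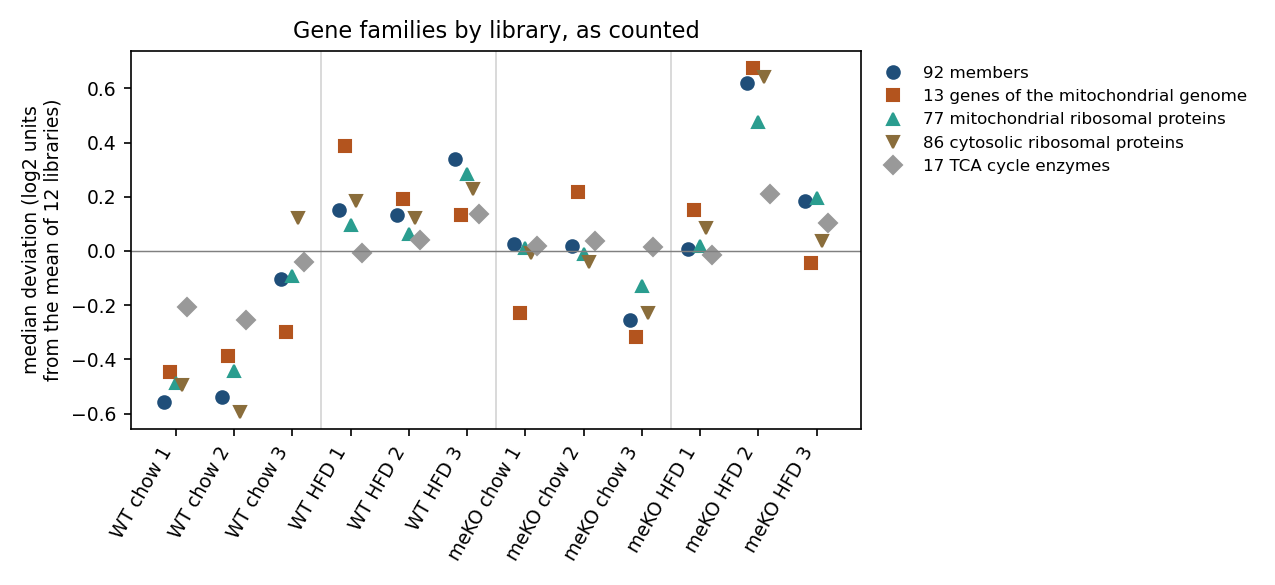
Median deviation of each gene family in each library from its mean over 12 libraries, in log2 units, as counted. The members, the mitochondrial genome and both ribosomal families are low in WT chow replicates 1 and 2 and high in meKO HFD replicate 2, and the 17 citric acid cycle (TCA) genes vary less.

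Within WT alone, 54 members rose on HFD and 0 fell, where 9.50% of all genes were called higher; 53 of the 54 were among the 72 of the averaged comparison. The median was 0.61, and the WT groups did not overlap, HFD being higher, for 73 members (19.4% of all genes). After the correction 28 members rose (7.93% of all genes) with a median of 0.27, and 2 of these were gene copies left uncorrected. By complex, 26 of 40, 0 of 4, 4 of 7, 10 of 15 and 11 of 18 members rose in complexes I to V, and 3 of 8 assembly factors. The highest rise among called members was 1.03 ± 0.25 in Cox7a1 (adjusted p = 0.0205) and the lowest estimate at 1 CPM or more -0.03 ± 0.08 in Sdha (adjusted p = 0.848). The adjusted calls depended on single libraries. 0 members passed without WT chow replicate 1, without WT chow replicate 2 or without WT HFD replicate 3, where 0.365%, 0.794% and 0.316% of all genes were called higher. In the same fits 58, 59 and 62 members had an unadjusted p under 0.05 (edgeR), beside 25.6%, 27.4% and 26.8% of all genes. 4 passed without WT HFD replicate 1 (1.50% of all genes), 34 without WT HFD replicate 2 (6.14%) and 79 without WT chow replicate 3 (18.9%), while the median over these fits ran from 0.52 to 0.82. With both WT chow replicates 1 and 2 left out, which leaves 1 WT chow library, the median was 0.32 and 4 members had an unadjusted p under 0.05 (9.73% of all genes), against 76 before (39.4%). Voom quality weights, which weigh libraries by their spread, called 84 (24.0%).

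Within meKO, 0 members passed the edgeR test for diet, where 0.105% of all genes were called. The estimates still pointed up for 87 of 92 members, with a median of 0.37, and 39 had an unadjusted p under 0.05 (15.9% of all genes); DESeq2 also called 0, with 45 at that p (17.1% of all genes). For 22 members the 3 HFD libraries lay above the 3 chow libraries (10.3% of all genes), and for 1, Cox6b2, below them. The highest estimate was 0.78 ± 0.26 in Atp5mk (adjusted p = 0.228), and the lowest at 1 CPM or more was -0.03 ± 0.16 in Cox7a2l. These values depended on single libraries. Without meKO HFD replicate 2 the median was 0.16, and 0 members had an unadjusted p under 0.05 (edgeR, 7.04% of all genes). Without meKO chow replicate 3 the median was 0.29 and the count 3 (8.17% of all genes). Without meKO HFD replicate 1 the median was 0.51 and the count 63 (24.7% of all genes). After the correction the median was 0.15 and the count 19, or 20.7%, near the 18.7% of all genes.

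The interaction, which asks whether the diet effect differed between genotypes, called 0 members, where 0.0162% of all genes were called; 1 member, Ndufa3, had an unadjusted p under 0.05 (6.13% of all genes), and DESeq2 called 0, with 1 at that p (6.51%). Estimates were lower in meKO than in WT for 84 of 92 members, with a median of -0.23. This median was -0.13 after the correction and -0.45 with voom quality weights (53 members at an unadjusted p under 0.05, and 27.5% of all genes). It was 0.05 once WT chow replicates 1 and 2 were left out. Without meKO HFD replicate 2 it was -0.46, with 29 members at an unadjusted p under 0.05 (edgeR, 9.33% of all genes). Without WT chow replicate 3 it was -0.42, with 17 such members, or 18.5%, near the 18.7% of all genes. Without meKO HFD replicate 1 it was -0.10, with 0 such members (5.91% of all genes). Leaving out 1 library at a time called 0 members. Ndufa3 stood at 39.1, 35.7 and 49.6 CPM in WT chow and at 64.0, 62.2 and 84.3 CPM in WT HFD. Libraries of meKO had 70.4, 59.5 and 44.7 CPM on chow and 43.8, 81.7 and 47.6 CPM on HFD. It was higher on HFD in WT without overlap and overlapped between diets in meKO, with an interaction of -0.77 ± 0.33 (adjusted p = 0.791).

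Between genotypes on chow, all 92 estimates were higher in meKO than in WT, with a median of 0.35, and 0 members passed, where 0.0810% of all genes were called. At an unadjusted p under 0.05 stood 20 members, or 21.7%, near the 19.8% of all genes, and in DESeq2, with 0 calls, 27 members, or 29.3%, beside 21.4%. For 15 members the meKO libraries all lay above the WT libraries (8.86% of all genes). The smallest p was in Ndufa9 (adjusted p = 0.133). Single libraries moved this comparison: without WT chow replicate 3, 33 members were called higher in meKO (7.95% of all genes), and with voom quality weights 67 were (15.0% of all genes). Without WT chow replicates 1 and 2 the median was 0.07, and after the correction it was 0.13 with 0 calls. Neutrophil markers differed between the same groups: all 4 were higher in meKO chow with a median of 1.64, S100a9 was called (3.13 ± 0.36), and they summed to a mean of 19.6 CPM in the WT chow libraries (16.8 to 25.1) against 41.6 in those of meKO chow (30.5 to 50), without overlap. Averaged over diets 3 of the 4 were called higher in meKO. Their part in the genotype estimates was not tested.

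Between genotypes on HFD, 0 members passed, where 0.0810% of all genes were called, and 1 had an unadjusted p under 0.05 (4.56% of all genes), with 0 calls and 2 such members in DESeq2 (4.86%). The median was 0.11, and 0.02 after the correction with 55 of 92 estimates above 0. For 4 members all meKO libraries lay above all WT libraries (5.45% of all genes), and without meKO HFD replicate 2 the median was -0.11. Averaged over diets, 0 members passed for genotype, where 0.170% of all genes were called, with a median of 0.23, and 0.07 after the correction. At an unadjusted p under 0.05 stood 9 members, or 9.78%, below the 17.7% of all genes, and in DESeq2, with 0 calls, 19 members, or 20.7%, beside 18.8%. With voom quality weights 47 members were called higher in meKO (14.3% of all genes).

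Levels among members differed widely, compared per kilobase of transcript. After Cox6b1 came Uqcrh with 419, Atp5f1b with 281, Cox6c with 251 and Atp5f1c with 242 CPM per kilobase, and the median member had 69.4. 31 members reached 100 CPM per kilobase, while Ndufa4l2 had 0.634.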

How the data were processed

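The authors deposited whole-number read counts per gene for 12 libraries, with 3 in each of 4 groups named in the sample titles. Per the submitters' processing notes, mm10 and DESeq2 were used; the aligner, counting tool and strand setting are not given in the sources used here, so reads of near-identical copies or overlapping genes may have been divided unevenly. Per the labels' protocols, RNA came from Trizol and libraries followed TruSeq.

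The model had 4 group means over all 12 libraries and was fitted to the counts by robust quasi-likelihood in edgeR 4.0.16 (R 4.3.3) after TMM scaling; filterByExpr kept all genes. Tests were two-sided and p-values adjusted by Benjamini-Hochberg over all genes; SE is the log2 fold change divided by the square root of F. Library levels used log2(CPM + 0.5). Groups of 3 are too small for exact permutation calls, so calls rest on the shared model. For the correction, a natural spline (5 df) on log2 median GENCODE vM21 basic transcript length and GC content was fitted per library and used as an offset. Genes without a length had none. Alternatives were DESeq2 1.42.0 and its size factors, limma 3.58.1 (voom, with and without quality weights), scaling by totals, no filter, a minimum of 10 counts per library, both groups alone, strict subunits and each library left out. The correction with shortest transcripts and the fit without WT chow replicates 1 and 2 were chosen after seeing the data.

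The members and lists were chosen with earlier results of these data known. Named by rule were up to 10 called members per comparison with the smallest p, the core and catalytic subunits, complex IV isoforms, and the extremes per comparison and per length. Single values of some members named by this rule are not reported here. Depth was 25844958 to 37282772 counts per library. Replicate numbers follow accession order and pair nothing.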

Additional observations from a re-analysis of the deposited data

How the results depend on the processing

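Beside the values given with each comparison, the counts of called members were as follows. The length and GC correction called 28 members for diet in WT and 40 for diet averaged over genotypes (39 higher, 1 lower). Atp5mc3 was at -0.025 and Ndufa1 at -0.0018 in the averaged comparison. The calls include 2 gene copies in WT and 3 in the averaged comparison that have no length and were left uncorrected. Voom with quality weights called 84 members for diet in WT (24.0% of all genes), 67 for genotype on chow (15.0%) and 47 for genotype averaged over diets (14.3%). It called 1 member for the interaction, where 295 of 12339 genes were called. Without WT chow replicates 1 and 2, with 1 WT chow library left and assumed to vary like the other groups, 0 members were called for diet in WT and 0 for diet averaged over genotypes, and the interaction median was 0.050. Leaving out 1 library at a time gave 0 to 79 calls for diet in WT, the 79 beside 18.9% of all genes called higher. For diet averaged over genotypes it gave 46 to 81 calls, the 81 beside 2586 of the 12339 genes called higher. That count was 46 once WT chow replicate 1 (8.02% of all genes), or else meKO chow replicate 3 (7.96%), was dropped. It was 47 without WT HFD replicate 3 (7.73%) and 48 without meKO HFD replicate 2 (1077 genes). For genotype on chow the calls ran from 0 to 33, the 33 beside 7.95% of all genes. For genotype averaged over diets they ran from 0 to 5, the 5 beside 381 genes called higher. Leaving out 1 library at a time gave medians from -0.11 to 0.24 for genotype on HFD. DESeq2, voom, other size factors, library totals, 10 counts in every library and no filter gave 63 to 77 averaged diet calls and 43 to 62 in WT. Library totals gave the lowest counts, beside 1429 of 12339 genes called higher in the averaged comparison and 857 in WT. DESeq2 gave the highest, beside 2174 and 1690 genes. The cause of these changes was not tested. No paired analysis was possible because the replicate numbers follow accession order and name no shared animal or day. Members of low count, such as Ndufa4l2 with 1 count in a library, limit what can be seen.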
